A study of Mus musculus with 6 samples.

Results

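The aminoacyl-tRNA synthetase genes were read in CD27SP NK cells with wild-type or floxed Myc alleles: 21 genes of the cytosolic enzymes, 16 of the mitochondrial enzymes and 2, Aimp1 and Aimp2, of the scaffold that holds several cytosolic enzymes together. These 39 genes, out of 25690 symbols in the tables, were listed by the name of the enzyme and not by their values, and all 39 were among the 15474 genes with enough counts for a test. RNA was sequenced from immature NK cells (NK1.1+, CD27+, CD11b− and CD3−) sorted from the bone marrow (BM) of mice. The controls were Ncr1cre Myc wt/wt and the mutants, which carry floxed alleles of Myc, were Ncr1cre Myc fl/fl; each genotype had 3 libraries, numbered 1, 2 and 4. Cre is driven by the Ncr1 locus, which encodes NKp46, in both groups, so Cre itself is shared by the controls, and deletion of the floxed Myc alleles starts only once a cell has begun to express Ncr1. The mice of the study were backcrossed to C57BL/6, matched for sex and age, and between 6 and 14 weeks old. The labels do not say whether the libraries of a genotype come from separate mice, so the p-values measure the spread between these libraries.

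An aminoacyl-tRNA synthetase joins one amino acid to the tRNAs that carry it, which is the step where the genetic code is read into protein. Cytosolic and mitochondrial protein synthesis use mostly separate enzymes, all encoded in the nucleus, although Gars and Kars serve both compartments and the bifunctional Eprs charges both glutamate and proline tRNAs. Uncharged tRNAs activate the kinase GCN2 (Eif2ak4) and, through Atf4, genes of amino acid synthesis and synthetase genes themselves, while Myc binds the E-box sequence CACGTG and is known for its effect on genes of ribosome production and translation.

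Promoter sequences were examined for the E-box and for the sequence TGATGNAA, bound by ATF and C/EBP factors such as Atf4, on both strands and in the window from 250 bases before to 50 bases after each RefSeq gene start (GRCm38.p6). A promoter was matched for 30 of the 39 genes, comprising 14 cytosolic, 14 mitochondrial and 2 scaffold genes. The promoters of Cars, Hars, Lars, Nars, Rars, Vars, Wars, Hars2 and Pars2 were not matched and so not examined for either motif. The E-box was present in 4 cytosolic promoters (Aars, Farsb, Iars and Tars), in 1 mitochondrial promoter (Ears2) and in neither scaffold promoter, whereas 7.15% of all 32851 promoters of this length hold it. The TGATGNAA sequence was present in 5 cytosolic promoters (Aars, Gars, Iars, Tars and Yars) and in no mitochondrial or scaffold promoter, against 3.97% of all promoters. A match describes the letters and is not evidence of binding. Of the genes whose transcripts are described below, Farsb and Gars were lower with Myc fl/fl at an adjusted p below 0.05, Iars and Tars were lower without reaching that limit, and Aars, with both motifs, had a log2 fold change of 0.00. Their promoters are shown for this reason, 5′ to 3′ on the strand of the gene, with the motifs in capitals. The windows are chr1:78488848-78489147 (minus strand), chr6:55037751-55038050 (plus strand), chr13:49681880-49682179 (plus strand), chr15:11399609-11399908 (minus strand) and chr8:111033592-111033891 (plus strand).
Farsb: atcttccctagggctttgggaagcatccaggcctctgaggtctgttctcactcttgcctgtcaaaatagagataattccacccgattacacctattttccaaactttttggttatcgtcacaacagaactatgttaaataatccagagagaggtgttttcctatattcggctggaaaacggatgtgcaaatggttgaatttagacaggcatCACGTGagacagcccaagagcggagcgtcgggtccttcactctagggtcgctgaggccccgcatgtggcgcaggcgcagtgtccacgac
Gars: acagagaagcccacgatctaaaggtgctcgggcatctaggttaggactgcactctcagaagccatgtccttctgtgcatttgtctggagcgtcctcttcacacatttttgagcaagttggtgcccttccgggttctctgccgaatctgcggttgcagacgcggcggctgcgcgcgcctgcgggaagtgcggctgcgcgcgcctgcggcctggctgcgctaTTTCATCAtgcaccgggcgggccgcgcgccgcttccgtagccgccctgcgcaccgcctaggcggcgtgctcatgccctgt
Iars: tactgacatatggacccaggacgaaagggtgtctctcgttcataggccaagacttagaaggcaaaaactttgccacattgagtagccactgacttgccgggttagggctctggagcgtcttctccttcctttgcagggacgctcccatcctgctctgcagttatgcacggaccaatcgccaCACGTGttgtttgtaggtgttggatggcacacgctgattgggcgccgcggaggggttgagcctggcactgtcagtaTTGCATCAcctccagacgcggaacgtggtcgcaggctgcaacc
Tars: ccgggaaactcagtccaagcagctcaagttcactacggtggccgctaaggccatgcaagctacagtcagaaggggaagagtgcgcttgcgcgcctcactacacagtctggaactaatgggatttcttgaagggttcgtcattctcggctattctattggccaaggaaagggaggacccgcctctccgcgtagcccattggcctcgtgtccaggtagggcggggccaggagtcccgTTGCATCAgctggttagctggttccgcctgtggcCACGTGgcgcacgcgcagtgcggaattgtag
Aars: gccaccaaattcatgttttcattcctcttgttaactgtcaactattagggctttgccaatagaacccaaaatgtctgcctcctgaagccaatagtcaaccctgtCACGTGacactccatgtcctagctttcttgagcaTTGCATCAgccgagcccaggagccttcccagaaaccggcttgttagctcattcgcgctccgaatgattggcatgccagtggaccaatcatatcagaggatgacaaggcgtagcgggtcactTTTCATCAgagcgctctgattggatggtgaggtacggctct
Counted from the gene start, the first base of the E-box lies at −39 in Farsb, −69 in Iars, −146 in Aars and 20 in Tars. The first base of TGATGNAA or its reverse complement lies at −30 in Gars, 8 in Iars, −15 in Tars, and −112 and 10 in Aars. The motifs do not overlap in any of these windows.

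Myc was measured as a check of the genotypes. Normalized counts, given as counts per Mio (CPM) after TMM scaling, were 200.5, 183 and 164 for control libraries 1, 2 and 4 of genotype wt/wt. In their fl/fl counterparts, Myc was at 61.5, 64.6 and 76.5 CPM, well below every control. Myc fell by 1.44 on the log2 scale (SE 0.15; edgeR, adjusted p = 0.00189). Library totals ran from 54550907 to 64962491 estimated counts except for Ncr1cre Myc wt/wt library 1, which had 8101219 and is the least precise. Of 10 NK cell markers, Ncr1, Klrb1c and Eomes among them, none passed the threshold in either direction. Their log2 fold changes ran from −0.64 to 0.93, with 3 below 0 and 7 above. At an unadjusted p below 0.05 in edgeR, 1 marker was lower and 2 were higher, as were 1574 and 1913 of all 15474 tested genes. The summed level of the 10 markers was between 14660 and 15252 CPM in wt/wt and between 16731 and 17479 CPM in fl/fl libraries. Transcripts of other cells were higher in the fl/fl libraries: all 8 basophil and mast cell markers passed, where 1.28% of all tested genes did so as higher, and their sum went from 15.1 to 18.5 CPM in wt/wt to 122 to 334 CPM in fl/fl libraries. Among markers of neutrophils and granulocyte progenitors 4 of 10 passed, 9 being tested (sums of 85.4 to 140.3 CPM against 538 to 897 CPM), among erythroid markers 1 of 7 (43.1 to 278 CPM against 534 to 1140.1 CPM) and among dendritic cell markers 2 of 6 (154 to 166 CPM against 294.0 to 359.9 CPM). At an adjusted p below 0.05 in edgeR, 6 of the 9 tested neutrophil and granulocyte markers and 7 of 7 erythroid markers were higher. So were 3 of 6 dendritic cell markers and 689 of all 15474 tested genes. None of 5 B lineage markers passed, 4 of them with enough counts for a test, and their sum was 4.55 to 8.37 CPM in wt/wt and 11.4 to 14.6 CPM in fl/fl libraries, without overlap. None of the 6 T cell markers passed, of which 5 were tested, with sums of 227 to 474 CPM against 237 to 317 CPM. No listed marker was at 0 in every library. The part of these cells in the synthetase results was not tested, and in bulk RNA fewer cells of a type and less RNA per cell cannot be told apart.

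Most synthetase genes had lower levels in Ncr1cre Myc fl/fl than in wt/wt NK cells, down to 63.2% of the wt/wt level for Farsb among the cytosolic enzymes, yet none of the 39 passed the threshold of an adjusted p below 0.01 with a log2 fold change of at least 0.5 in edgeR. Of all tested genes, 0.872% passed this threshold as lower and 1.28% as higher. At an adjusted p below 0.05 with no limit on the fold change, 5 of the 39 genes were lower and none was higher, against a background of 3.38% of all tested genes called lower. Unadjusted p-values below 0.05 were found for 19 lower genes and 0 higher ones, where 10.2% of all tested genes were lower at this limit. At the first threshold 4 of the 39 were lower in DESeq2 and 0 in limma-trend, with backgrounds of 3.47% and 0.504% of all tested genes. At the second they numbered 10 and 3, with backgrounds of 5.74% and 2.97%. Over the cytosolic genes the log2 fold change had a median of −0.32 and was below 0 in 17 of 21. Over the mitochondrial genes the median was −0.22 and 14 of 16 were below 0, where the median of all tested genes was 0.01 and 48.5% of them were below 0. The difference between the cytosolic and the mitochondrial list was not tested.

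Libraries of the genotypes were completely separated for many members. In 15 of 21 cytosolic, 2 of 2 scaffold and 7 of 16 mitochondrial genes every fl/fl library was below every wt/wt library in CPM, where 15.1% of all tested genes showed this. The reverse held for 1 of the 39 genes, Wars, and for 16.2% of all tested genes. Paired by their numbers, the libraries gave a median log2 difference over the cytosolic genes of −0.52, −0.22 and −0.19 for numbers 1, 2 and 4, and over the mitochondrial genes of −0.22, −0.22 and −0.19. The wt/wt library 1, the one with the fewest counts, was the highest of the 6 libraries for 22 of the 39 genes, 15 of them cytosolic. How often it was the highest over all tested genes was not counted. With no replicate block the cytosolic median was −0.32 and 5 cytosolic genes were lower at an adjusted p below 0.05 in edgeR, as were 4.47% of all tested genes. In that fit without wt/wt library 1, the median was −0.29 with 4 genes lower, and 3.87% of all tested genes were lower. The count was 3 without wt/wt library 2 and 5 without wt/wt library 4. It was 0, 1 and 0 without fl/fl libraries 1, 2 and 4, and the share of all tested genes was not counted for these omissions. Without both libraries numbered 1, with the block, the cytosolic median was −0.23, and none of the 39 genes reached an adjusted p of 0.05 in edgeR. Of the 39 genes 10, 4 of them cytosolic, were lower at an unadjusted p below 0.05, against 8.89% of all genes tested in that fit.

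**Figure D1:**
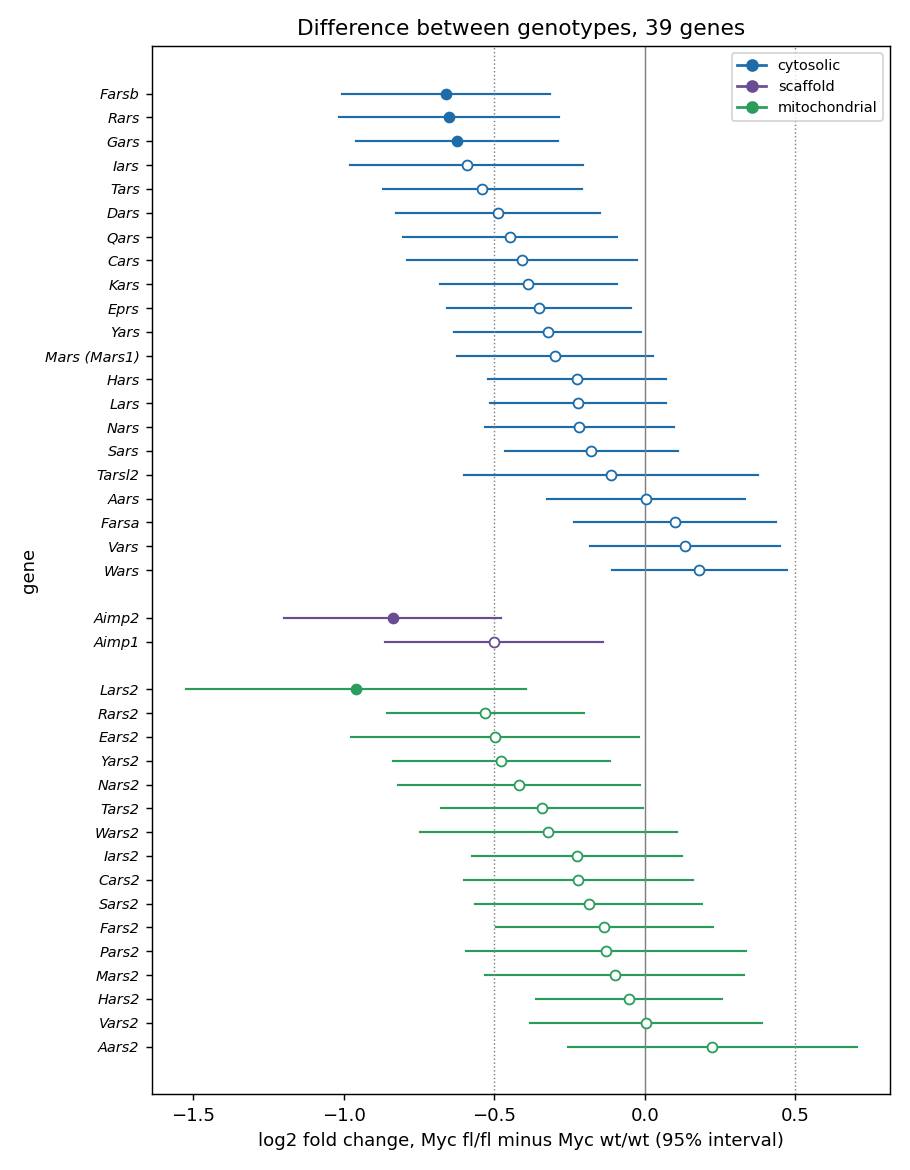
Log2 fold change of each of the 39 genes, Ncr1cre Myc fl/fl minus wt/wt, with its 95% interval from edgeR; filled points have an adjusted p below 0.05 and dotted lines mark the fold change limit of 0.5. The 5 filled points, Farsb, Rars, Gars, Aimp2 and Lars2, lie left of 0, and the points right of 0 have intervals that include 0.

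Among the cytosolic enzymes, Farsb, Rars and Gars had the lowest fold changes. Farsb (ENSMUSG00000026245.16, chromosome 1 of GRCm38 from 78417975 to 78488897, minus strand) encodes the beta subunit of phenylalanyl-tRNA synthetase. Its level was 136, 91.9 and 93.5 CPM in wt/wt libraries 1, 2 and 4 and 67.5, 70.9 and 61.3 CPM in fl/fl libraries 1, 2 and 4. The groups did not overlap, and the wt/wt library 1 stood above the other two. The log2 fold change was −0.66 (SE 0.15, 95% interval −1.01 to −0.32; edgeR, adjusted p = 0.0314). Over the alternative settings this adjusted p ranged from 0.00325 to 0.133, and with no replicate block the log2 fold change was −0.68 with all libraries (adjusted p = 0.0299) and −0.49 without wt/wt library 1 (adjusted p = 0.036). Farsb shares 248 exon bases, 9.47% of its own, with Sgpp2 on the opposite strand, and Sgpp2 was at most 0.718 CPM in any library.

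The genotypes did not separate for the partner of Farsb. Farsa encodes the catalytic alpha subunit of the same tetrameric enzyme, and its level was 92.2, 114 and 89.6 CPM in wt/wt and 85.8, 111 and 121 CPM in fl/fl libraries, so the groups overlapped. Its log2 fold change was 0.10 (95% interval −0.24 to 0.44; edgeR, adjusted p = 0.768), and −0.090 without both libraries numbered 4. In transcripts per Mio (TPM), which are per length, the ratio of Farsb to Farsa was 1.40, 0.705 and 0.922 in wt/wt and 0.720, 0.571 and 0.437 in fl/fl libraries 1, 2 and 4. This ratio was chosen after the values were seen, was not tested, and overlapped between the groups, since fl/fl library 1 lay above wt/wt library 2.

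Rars (ENSMUSG00000018848.4, chromosome 11 from 35808381 to 35834506, minus strand) encodes arginyl-tRNA synthetase, a member of the multisynthetase complex. It was at 136, 93.5 and 98.0 CPM in wt/wt and at 64.6, 73.6 and 67.3 CPM in fl/fl libraries. Its log2 fold change was −0.65 (SE 0.16; edgeR, adjusted p = 0.0414). With no replicate block it was −0.67 with all libraries (adjusted p = 0.0271) and −0.50 without wt/wt library 1 (adjusted p = 0.0332). Over the alternative settings the adjusted p of Rars ranged from 0.00712 to 0.166, and it was below 0.05 in 12 of 20. Gars (ENSMUSG00000029777.10, chromosome 6 from 55038007 to 55079500, plus strand), which makes glycyl-tRNA for both compartments, was at 229.7, 177 and 176 CPM in wt/wt and at 118, 132 and 125 CPM in fl/fl libraries. Its log2 fold change was −0.62 (SE 0.15; edgeR, adjusted p = 0.035). Leaving out both libraries of number 1, 2 or 4 ended this call for Gars, with adjusted p-values of 0.137, 0.0535 and 0.0592, and over all the alternative settings the range was 0.00355 to 0.137. The groups did not overlap for either gene, and both genes had their highest value in wt/wt library 1. Iars, Tars and Dars, for isoleucine, threonine and aspartate, followed with log2 fold changes of −0.59, −0.54 and −0.49 and adjusted p-values of 0.0695, 0.0552 and 0.0849 in edgeR. Dars, among the 3 most abundant members in TPM, was at 258, 178 and 195 CPM in wt/wt and at 148, 155 and 141 CPM in fl/fl libraries, without overlap.

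The log2 fold changes of Vars, Wars, Aars and Tarsl2 were above or close to 0. Vars, the valyl-tRNA synthetase gene and the most abundant cytosolic member per length (213 TPM in wt/wt and 248 TPM in fl/fl on average), was at 322, 424 and 379.8 CPM in wt/wt and at 385, 389 and 456 CPM in fl/fl libraries. The groups overlapped, and its log2 fold change was 0.13 (95% interval −0.18 to 0.45; edgeR, adjusted p = 0.654). Wars, for tryptophan, had the largest positive value of the cytosolic genes: 84.2, 92.6 and 89.0 CPM in wt/wt against 99.7, 102 and 99.6 CPM in fl/fl libraries. Every fl/fl library was above every wt/wt library, but the log2 fold change of 0.18 had an interval from −0.11 to 0.47 (edgeR, adjusted p = 0.464). Aars, for alanine, was at 153, 125 and 121 CPM in wt/wt and at 128, 124 and 147 CPM in fl/fl libraries, with a log2 fold change of 0.00 (95% interval −0.33 to 0.33). Aars shares 1326 exon bases (14.29%) with Exosc6 on the same strand. Tarsl2, the threonyl-tRNA synthetase-like gene, was the least abundant of the cytosolic list, at 4.56 TPM on average in wt/wt libraries, and its log2 fold change of −0.11 had an interval from −0.60 to 0.38. The remaining cytosolic genes, Qars, Cars, Kars, Eprs, Yars, Mars1 (Mars in GENCODE M21), Hars, Lars, Nars and Sars, had log2 fold changes between −0.45 and −0.18. All of these except Nars were separated by genotype, and none had an adjusted p below 0.05 in edgeR.

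**Figure D2:**
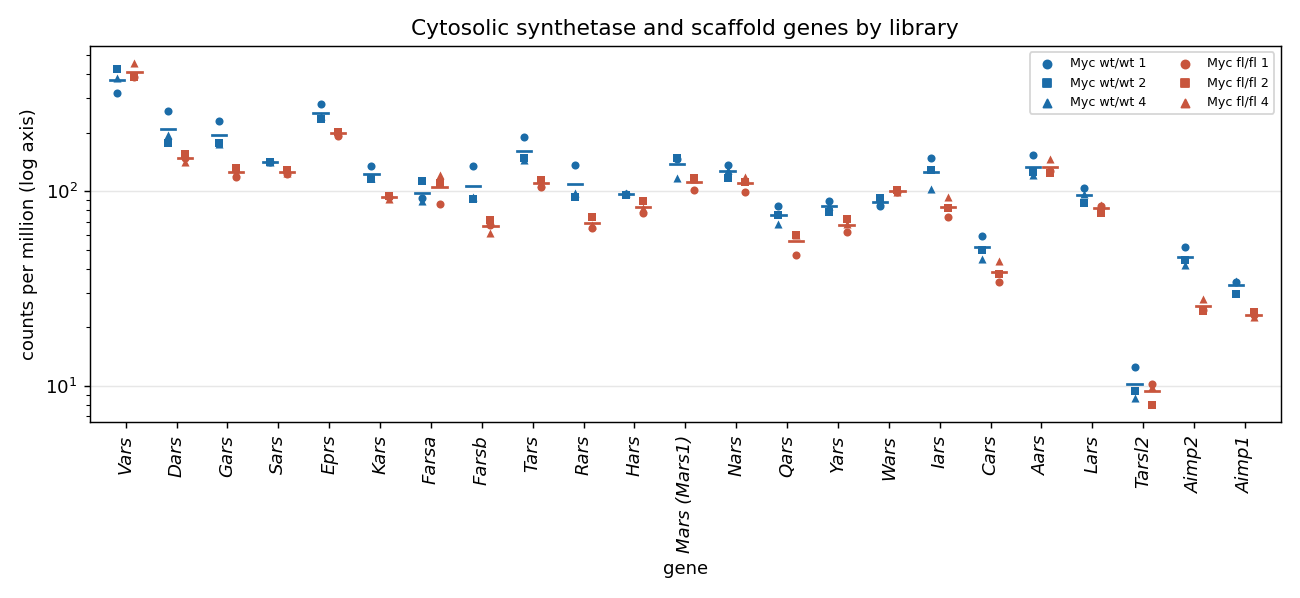
Normalized counts (CPM, log axis) of the 21 cytosolic genes and of Aimp2 and Aimp1 in each library, ordered by mean TPM in wt/wt within each list; symbols mark the library number and bars the mean of 3 libraries. Blue wt/wt points lie above red fl/fl points for Gars, Farsb, Rars, Tars and Aimp2, and the genotypes overlap for Vars, Farsa and Aars.

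Both scaffold genes were lower in fl/fl libraries, and Aimp2 had the smallest adjusted p of the 39 genes. Aimp2 (ENSMUSG00000029610.13, chromosome 5 from 143902704 to 143909847, minus strand) encodes the p38 scaffold on which the complex is assembled. It was at 52.0, 44.3 and 42.0 CPM in wt/wt and at 24.6, 24.4 and 28.0 CPM in fl/fl libraries. The log2 fold change was −0.84 (SE 0.16, 95% interval −1.20 to −0.48; edgeR, adjusted p = 0.0146), which corresponds to 56.0% of the wt/wt level. The adjusted p was 0.00712 with no replicate block, below the 0.01 threshold, and 0.0149 in that fit without wt/wt library 1. Without both libraries numbered 1 it was 0.0679 with the block. Aimp2 shares 487 of its exon bases (29.44%) with Eif2ak1 on the opposite strand, and since the library kit does not mark strand, reads from this stretch cannot be told apart. Eif2ak1 itself had a log2 fold change of 0.06 (edgeR, adjusted p = 0.842). Aimp1, the p43 scaffold gene, was at 34.4, 29.7 and 34.7 CPM in wt/wt and at 23.1, 23.9 and 22.6 CPM in fl/fl libraries, with a log2 fold change of −0.50 (SE 0.16; edgeR, adjusted p = 0.0956). The genotypes did not overlap for either gene.

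Together with Eprs, Iars, Lars, Mars1, Qars, Rars, Kars and Dars, the scaffold genes make up the multisynthetase complex as listed here. All 10 genes had a negative log2 fold change, from −0.84 to −0.22 with a median of −0.47, and in all 10 every fl/fl library was below every wt/wt library, against 15.1% of all tested genes. The 13 cytosolic genes outside the complex had a median of −0.22, with 9 below 0 and 7 separated in this way. At an adjusted p below 0.05 the counts were 2 of 10 and 2 of 13, against 3.38% of all tested genes. Paired by the numbers 1, 2 and 4, the medians were −0.68, −0.32 and −0.32 for the complex and −0.32, −0.13 and −0.12 for the other cytosolic genes. Without both libraries numbered 1 the median of the complex was −0.33 with all 10 below 0. In that edgeR fit no gene of the complex had an adjusted p below 0.05, and 3 had an unadjusted p below 0.05, against 8.89% of all genes tested in it. By the fold of the catalytic domain, the 9 class I genes had a median of −0.32 and the 11 class II genes one of −0.22. The bifunctional Eprs was counted in neither class, and Farsb, the beta subunit, was counted with class II. The difference between these lists was not tested. Summed over the complex, the level was 782, 684 and 644 TPM in wt/wt and 530.5, 548 and 564 TPM in fl/fl libraries, without overlap. Summed over the 21 cytosolic genes it was 1677, 1634 and 1500.1 TPM in wt/wt and 1343, 1426 and 1519.6 TPM in fl/fl libraries, where fl/fl library 4 lay above wt/wt library 4. As a share of estimated counts, the same 21 genes held 0.289%, 0.279% and 0.267% in wt/wt and 0.224%, 0.236% and 0.241% in fl/fl libraries, without overlap.

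The mitochondrial enzymes were expressed at lower levels per length than the cytosolic ones. Without Lars2, their mean in wt/wt libraries ranged from 1.63 TPM for Mars2 to 42.1 TPM for Tars2 with a median of 20.2 TPM, where the median of the cytosolic genes was 71.1 TPM. Rars2, for arginine, had the lowest fold change after Lars2: it was at 51.1, 41.6 and 44.0 CPM in wt/wt and at 32.3, 30.6 and 31.4 CPM in fl/fl libraries. The groups did not overlap, and the log2 fold change was −0.53 (SE 0.15; edgeR, adjusted p = 0.058). Ears2, Yars2, Nars2, Tars2 and Wars2 were separated by genotype in the same direction, with log2 fold changes between −0.50 and −0.32 and adjusted p-values between 0.107 and 0.367 in edgeR. Iars2, Cars2, Sars2, Fars2, Pars2, Mars2 and Hars2 had log2 fold changes between −0.23 and −0.05 and overlapped. Vars2 was at 0.00. Aars2, for alanine, had the largest positive value, with 8.05, 10.6 and 11.2 CPM in wt/wt and 11.5, 10.5 and 13.0 CPM in fl/fl libraries, which overlapped. Its log2 fold change was 0.22 (95% interval −0.26 to 0.70; edgeR, adjusted p = 0.607).

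Lars2, which encodes the mitochondrial leucyl-tRNA synthetase (ENSMUSG00000035202.8, chromosome 9 from 123366927 to 123462666, plus strand), stood apart from the other mitochondrial genes. It was at 14157, 4364 and 6959.8 CPM in wt/wt and at 4057, 3701 and 3876 CPM in fl/fl libraries. The wt/wt library 1 was far above the rest, and the wt/wt libraries had an SD of 5073 CPM around a mean of 8494 CPM, against a fl/fl mean of 3878 CPM (SD 178, n = 3 each). The log2 fold change was −0.96 (SE 0.25; edgeR, adjusted p = 0.0485). With no replicate block it was −1.13 with all libraries (adjusted p = 0.0658) and −0.56 without wt/wt library 1 (adjusted p = 0.102). Over the alternative settings the adjusted p ranged from 0.00358 to 0.573. Between 99.2% and 99.7% of the TPM of Lars2 was assigned to 1 transcript annotated as nonsense-mediated decay (ENSMUST00000217116), at 1425 to 4827 TPM, while the full protein-coding transcript (ENSMUST00000038863) was at 6.53 to 14.6 TPM. These transcripts share 3750 exon bases, 144 bases are only in the coding transcript and 6 only in the other, of which 2 extend its 3′ end. The level of Lars2 is therefore uncertain. On protein-coding transcripts alone its log2 fold change was −0.23. Summed with Lars2 the mitochondrial genes reached 5150, 2025 and 2868 TPM in wt/wt and 1892, 1709 and 1814 TPM in fl/fl libraries. Without it they reached 307, 345 and 294 TPM in wt/wt and 263, 274 and 291 TPM in fl/fl libraries, with fl/fl library 4 just below the lowest wt/wt library. The median log2 fold change of the remaining 15 genes was −0.22, and none of them had an adjusted p below 0.05 in edgeR, 5 having an unadjusted p below 0.05 against the background of 10.2%. With no replicate block Rars2 had an adjusted p of 0.032 and Lars2 one of 0.0658, so that 1 mitochondrial gene was called lower in each fit, and not the same one. In DESeq2, Rars2 and Yars2, the enzyme for tyrosine, were lower at adjusted p-values of 0.0118 and 0.0434.

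**Figure D3:**
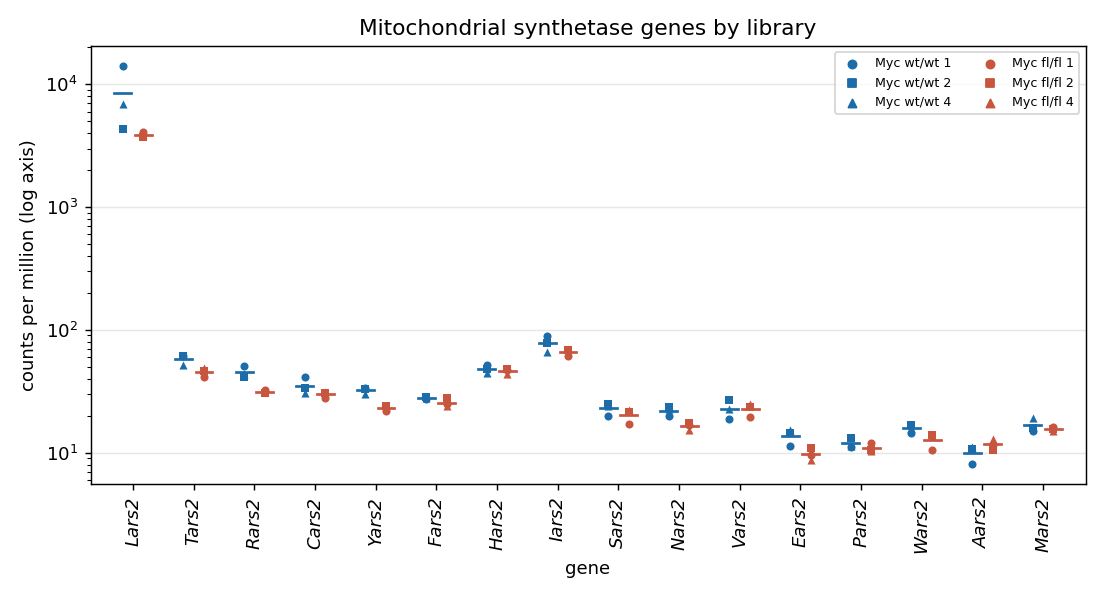
Normalized counts (CPM, log axis) of the 16 mitochondrial synthetase genes in each library, ordered by mean TPM in wt/wt libraries; symbols mark the library number and bars the mean of 3 libraries. Lars2 lies between 3701 and 14157 CPM, the other genes lie below 100 CPM, and Rars2, Yars2 and Nars2 show no overlap between genotypes.

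How the reads were shared among transcripts also touched other members. In at least 1 library, protein-coding transcripts held less than 50% of the TPM of 8 of the 39 genes (Cars, Qars, Tars, Cars2, Lars2, Nars2, Vars2 and Wars2). Counting protein-coding transcripts only, an alternative chosen after seeing the data, the cytosolic median was −0.34 and the mitochondrial median −0.22, and 4 cytosolic genes were lower at an adjusted p below 0.05 in edgeR. With offsets from the deposited effective lengths the medians were −0.21 and −0.13, and only Aimp2 of the 39 genes had an adjusted p below 0.05. The share of all tested genes called lower was not counted for either of these fits, so their counts have no background beside them. Gars and Rars share no stretch of 31 bases with another gene. The largest shared parts were 29.5% of such stretches for Aimp2, 23.6% for Iars2 and 14.7% for Iars. Most of these were shared with Eif2ak1, Rab3gap2 and Gm4849, in that order, and Gm4849 had no transcript among those quantified.

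The steps before and after charging were read from other lists. Of 5 proofreading genes, which remove wrongly charged amino acids, none had an adjusted p below 0.05 in edgeR, with a median log2 fold change of −0.36, 2 genes lower at an unadjusted p below 0.05 (10.2% of all tested genes), and Dtd1 the lowest at −0.56 (adjusted p = 0.0905). For mitochondrial charging, 4 genes that complete it were read (Gatb, Gatc, Qrsl1 and Mtfmt), with a median of −0.32, and the 2 genes of selenocysteine charging (Pstk and Sepsecs) had a median of −0.14. Among 10 genes of tRNA end maturation and export the median was −0.25, with values from −0.43 to 0.30. In edgeR no gene of these 3 lists had an adjusted p below 0.05, and an unadjusted p below 0.05 was found for 1 of 4 genes of mitochondrial charging and 1 of 10 of tRNA maturation, against the same 10.2%.

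Delivery of charged tRNAs to the ribosome was the neighbouring step with genes past the threshold. The list holds 7 genes, 6 of elongation factors and Eef1e1, which encodes a further scaffold protein of the multisynthetase complex and is not counted with the complex here. Eef1a1, Eef1b2 and Eef1g fell, where 0.872% of all tested genes did, Eef1d had an adjusted p of 0.0177, and Eef1e1 had a log2 fold change of −0.45 (edgeR, adjusted p = 0.0918). Eef1a1, the factor that carries aminoacyl-tRNA to the ribosome, was at 2033, 1703 and 2305 CPM in wt/wt and at 1006, 1103 and 974 CPM in fl/fl libraries. It fell by 0.96 on the log2 scale (SE 0.16; edgeR, adjusted p = 0.0076), and its exchange factor subunits Eef1b2 and Eef1g fell by 0.93 and 0.91 (adjusted p = 0.00507 and 0.00564). Over the alternative settings these 3 adjusted p-values rose to at most 0.0319, 0.0225 and 0.0239, past the 0.01 limit. The list median was −0.75, and all 7 genes were separated by genotype, against 15.1% of all tested genes. Eef1a1 has processed copies in the genome, between which the quantification can divide reads.

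**Figure D4:**
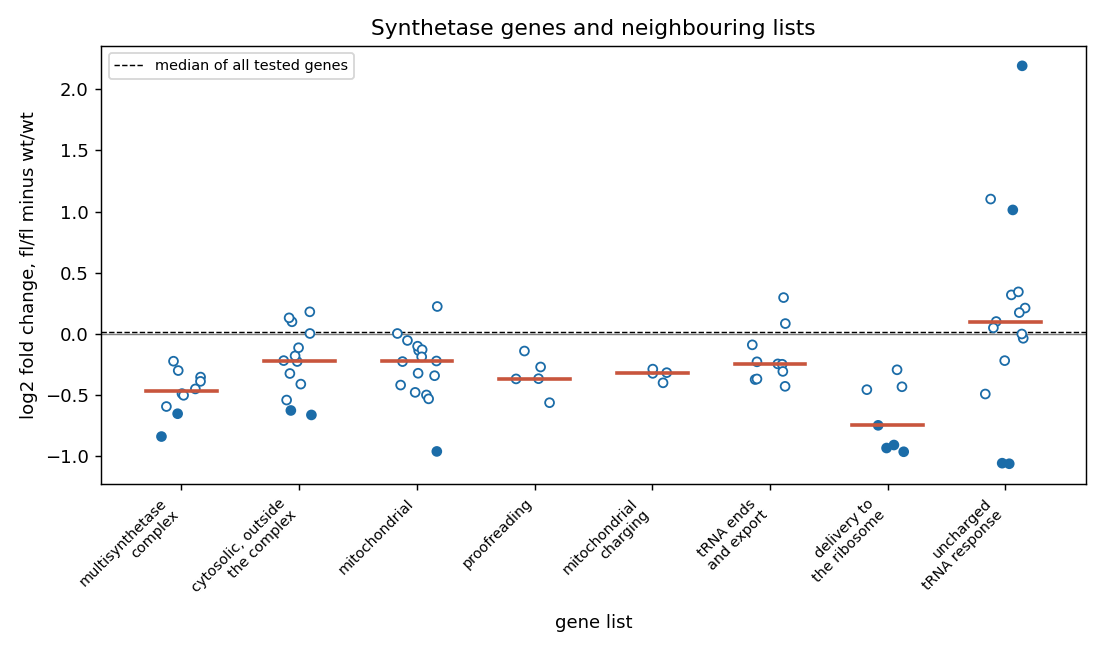
Log2 fold change (fl/fl minus wt/wt) of every tested gene of the synthetase lists and of the neighbouring lists, except selenocysteine charging, which is not drawn. Filled points have an adjusted p below 0.05 in edgeR, red bars are list medians and the dashed line is the median of all tested genes. Medians lie at −0.47 for the multisynthetase complex, −0.22 for the other cytosolic and for the mitochondrial genes, −0.75 for delivery to the ribosome and 0.10 for the uncharged tRNA response.

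Genes of the response to uncharged tRNA moved in both directions. Of 16 listed genes 15, all but Chac1, were tested, Asns and Cebpb rose, Psat1 and Phgdh fell, where 1.28% of all tested genes rose and 0.872% fell, and the list median was 0.10. Asns, asparagine synthetase, was at 3.12, 2.22 and 3.28 CPM in wt/wt and at 11.9, 11.3 and 15.4 CPM in fl/fl libraries, a log2 fold change of 2.19 (SE 0.24; edgeR, adjusted p = 0.00204). Psat1 and Phgdh, enzymes of serine synthesis, fell by 1.06 and 1.06 on the log2 scale (adjusted p = 0.00671 and 0.00937), with no overlap between genotypes. Cebpb, a transcription factor gene also expressed in myeloid cells, rose by 1.01 (adjusted p = 0.00689), and its adjusted p was 0.0313 with no replicate block. Over the alternative settings the adjusted p reached 0.0109 for Asns, 0.0271 for Psat1, 0.0763 for Phgdh and 0.0925 for Cebpb. Atf4 itself had a log2 fold change of 0.34 (adjusted p = 0.147) and the kinase gene Eif2ak4 one of 0.10 (adjusted p = 0.85). The basophil, granulocyte and erythroid transcripts described above were higher in the same fl/fl libraries, and their part in the values of Asns and Cebpb was not tested.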

How the data were processed

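RNA from sorted CD27SP NK cells of the BM was measured by poly(A)-selected SMART-Seq v4 libraries, a kit that does not mark strand, in 3 samples of the control genotype wt/wt and 3 of fl/fl, both with Ncr1cre, grouped by the genotype in the labels. For each transcript the authors deposited an estimated count, which is not normalized, a TPM value, scaled to length and to a fixed sum in each library, and an effective length. The authors' methods name Salmon within nf-core/RNAseq and GRCh38, whereas the columns are those of kallisto and the identifiers are of mouse. The estimated counts were summed by symbol through GENCODE M21 (GRCm38, 100239 of 100583 transcripts matched) and rounded. Genes were filtered by filterByExpr (15474 kept), scaled by TMM and tested by edgeR 4.0.16 (R 4.3.3; quasi-likelihood test, two-sided) with a term for the replicate number, kept since the study describes its analyses as paired, and with Benjamini-Hochberg adjustment over all tested genes. To pass, a gene needed a log2 fold change of 0.5 or more in size and an adjusted p under 0.01. No set test was run, and no test was run on list medians, sums or ratios. DESeq2 1.42.0, limma-trend 3.58.1 and other settings served as alternatives, and the fits were tested on simulated data. Differences by pair used log2(CPM + 0.5).

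The members and lists were chosen with earlier results of these data known. Every member is accounted for, and some genes of other lists are not reported here. Named with each library's value were the 3 most abundant by TPM and the cytosolic and mitochondrial genes of largest rise and fall, and of other lists at most the 4 genes of smallest p. The genes at an adjusted p below 0.05, Farsa, Aars, Aimp1, Rars2 and Yars2, the response genes Atf4, Eif2ak4 and Chac1, Eef1e1, and Sgpp2, Exosc6 and Eif2ak1, which overlap members, were added after the values were seen. Replicates differed by more than counting noise (chi-square per degree of freedom of 39.2 to 99.0).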

Additional observations from a re-analysis of the deposited data

How the results depend on the processing

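The numbers shared by libraries of both genotypes are not shown to pair them, since the correlations of same-numbered libraries were −0.012, −0.020 and 0.050, and the block was kept as the study describes its analyses as paired. Of 780 alternative values over the 39 genes and 20 settings, 752 kept their direction and their side of the threshold, 9 passed it in addition, 0 lost it, as no gene passed in the reported fit, and 19 turned in direction. No member was higher past the threshold in any setting. Of the 39 genes, 0 passed as lower in the reported fit, 1 with no replicate block, 4 in DESeq2, 3 without a filter on low counts, 1 on protein-coding transcripts with no replicate block, and 5 at an adjusted p below 0.05 with no fold limit. The cytosolic genes lower at an adjusted p below 0.05 numbered 3, 5 with no replicate block, 6 in DESeq2, 0 with effective length offsets, 6 without a filter, and 7 on protein-coding transcripts with no replicate block. Leaving out both libraries of a number gave 0 to 2, and leaving out single libraries with no replicate block gave 5 without wt/wt 4, 0 without fl/fl 1, 1 without fl/fl 2 and 0 without fl/fl 4. For the mitochondrial genes the count of 1 became 2 in DESeq2 and without a filter, 0 in limma-trend, by the largest adjusted p of the 3 tools, with library size only, with effective length offsets and on protein-coding transcripts, and 0 to 1 on leaving out a number, and with no replicate block it was 0 without any of wt/wt 1, wt/wt 4, fl/fl 1, fl/fl 2 and fl/fl 4. For the scaffold genes the count of 1 became 2 with no replicate block, 2 in DESeq2 and 2 on protein-coding transcripts with no replicate block, and ran from 0 to 1 on leaving out a number. Of all 15474 tested genes, 0.872% passed as lower in the reported fit, 184 genes with no replicate block and 3.47% in DESeq2. At an adjusted p below 0.05, 3.38%, 4.47% and 5.74% were lower in these fits, 2.97% in limma-trend, and 3.87% with no replicate block and without wt/wt 1. For the other settings these shares were not counted. The mitochondrial median of −0.22 ran from −0.35 to −0.22 on leaving out a number and was −0.13 with effective length offsets and −0.20 with at least 10 counts in every library. With no replicate block it was −0.31 without wt/wt 4, −0.19 without fl/fl 1, −0.25 without fl/fl 2 and −0.26 without fl/fl 4. Myc lay between −1.62 and −1.30 on leaving out a number, and without number 1 its adjusted p in edgeR was 0.0105. The genes that turned in direction lay near 0 in the reported fit, except Wars2, at −0.32 there. With no replicate block, Aars was −0.028 without wt/wt 2, −0.063 without wt/wt 4, −0.067 without fl/fl 4 and −0.017 on protein-coding transcripts, with −0.015 on these with the block and −0.16 as its lowest value on leaving out a number (highest 0.14). Vars2 was −0.012 with no replicate block, with −0.14 without wt/wt 1, −0.025 without wt/wt 4, −0.042 without fl/fl 2 and −0.080 without fl/fl 4 in that fit, −0.12 with effective length offsets, and −0.0915 to 0.11 on leaving out a number. Farsa ran from −0.0897 to 0.20 and Mars2 from −0.19 to 0.017 on leaving out a number, Mars2 was 0.0080 without wt/wt 4 and Tarsl2 0.036 without wt/wt 1, both with no replicate block, and Wars2 was 0.0034 with effective length offsets. The cause of these changes was not tested. The depth of wt/wt 1 limits the precision of every value that rests on it.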
